A study of Mus musculus with 12 samples.

Results

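The genes described here are 10 transporters that move bile acids, conjugated organic anions, sterols and drugs out of the liver cell. They are Abcb11, Abcc2, Abcg2, Abcg5, Abcg8, Abcb1a and Abcb1b, which act mainly at the canalicular membrane, and Abcc3, Abcc4 and Slc51b, which act mainly at the basolateral membrane. They were chosen by name: every gene probe of the arrays that carries one of these names was taken (Slc51b stands as Ostb), which gave 10 of 27962 gene names and 16 of 41174 probes. Of the 16 probes 15 passed the filter on dim probes and were tested, and all 10 genes had at least 1 tested probe. The second probe of Abcc3, A_52_P622067, was too dim.

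The samples were livers of Abcb4 (-/-) mice, which lack the phosphatidylcholine floppase of the canaliculus and develop sclerosing cholangitis, set against livers of Abcb4 (+/+) mice. The knockout mice received cholic acid (CA), meant to raise the activity of the disease, or ursodeoxycholic acid (UDCA), meant to lower it, in their feed over 9 weeks. Each diet group had 5 knockout livers on 6 two-colour arrays, and every array also carried wild-type liver RNA in the other dye. The knockout RNA was in Cy5 on arrays 1 to 3 of each group and in Cy3 on arrays 4 to 6, and 1 of arrays 4 to 6 repeated, with dyes swapped, a liver of another array of its group. The sources used here give no dose, no diet for the wild-type mice, and no sex, strain or age for any mouse. All knockout mice received a bile acid, so the effect of the genotype and that of the diet cannot be told apart within a group.

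Bile forms when transporters in the canalicular membrane pump bile acids, phospholipid and cholesterol into the space between hepatocytes. ABC transporters use ATP for this, and the osmotic pull of the solutes draws water after them. The exporters of the basolateral membrane carry bile acids and conjugates back to the blood, a route known to gain weight when bile flow is impaired. Many of these genes are textbook targets of nuclear receptors that sense bile acids, sterols or foreign compounds (FXR, LXR, CAR and PXR) and of the oxidant sensor NRF2.

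Each value is the log2 of the knockout signal divided by the wild-type signal of its array, so 1 unit is a doubling. Calls rest on an adjusted p under 0.05 in a limma fit over all 21697 tested probes, with a term for the dye. The p-values measure the spread between arrays, and because 1 array of each group repeats a liver they are somewhat too small. The arrays lay on 5 slides, of which slide 3 held 1 CA and 2 UDCA arrays and slide 4 held 1 CA and 3 UDCA arrays. Each difference within a slide was taken after subtraction of the fitted dye effect. On slide 3 the knockout was in Cy3 on the CA array and in Cy5 on both UDCA arrays, so diet and dye coincide there. The slide as a block means a fixed level per slide unless called random. In that fit CA arrays 1 and 2 (slide 1, same dye orientation) and UDCA array 6 (alone on slide 5) had no weight in the fitted ratios. The median intensity of an array ran from 250.2 to 1296 in green and from 59.2 to 158.2 in red, and between 31.6% and 62.4% of probes were well above background in red. Of the 2 probes for Abcb4, the deleted gene, A_52_P223194 was lower on every array (-2.73 ± 0.21 SE with CA and -1.77 ± 0.21 with UDCA), and A_51_P249118 was lower on 5 of 6 arrays of each group (-0.73 ± 0.21 and -1.28 ± 0.21). CA minus UDCA was called in the limma fit on A_52_P223194 (-0.96 ± 0.30, adjusted p = 0.0271). On A_51_P249118 it ran the other way and was not called (0.55 ± 0.29, adjusted p = 0.175). The spot of A_51_P249118, the probe that stands for Abcb4 in the gene lists below, was saturated in a channel on 7 of 12 arrays. No label gives the deleted exons, so the position of these probes relative to them is unknown here.

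With CA, 7 of the 15 exporter probes rose, 4 fell and 4 were not called, against a background of 34.2% of all tested probes that rose and 25.4% that fell. With UDCA, 9 rose, 1 fell and 5 were not called, against 15.1% and 8.4% of all tested probes. The median over the 15 probes was -0.06 with CA and 0.55 with UDCA, and over all tested probes 0.05 and 0.03. The difference between the diets, CA minus UDCA, was called for 1 probe as higher and for 5 as lower, against 16.4% and 10.5% of all tested probes. On 2 of the 15 probes the arrays of the 2 diets did not overlap, which held for 9.84% of all tested probes. Of these, Abcg2 A_52_P336142 had only 3 values in each diet, where a lack of overlap arises more easily. When loess was replaced by subtracting the median of each array, the median of all probes moved to 0.24 with CA and 0.30 with UDCA. Then 5 exporter probes rose and 2 fell with CA (4942 and 1154 of all probes), and 6 rose with UDCA (1870 and 102 of all probes called higher and lower). In that setting no exporter probe was called as different between the diets by limma, with 1 higher and 3 lower at an unadjusted p under 0.05, and 663 and 122 of all probes were called.

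**Figure D1:**
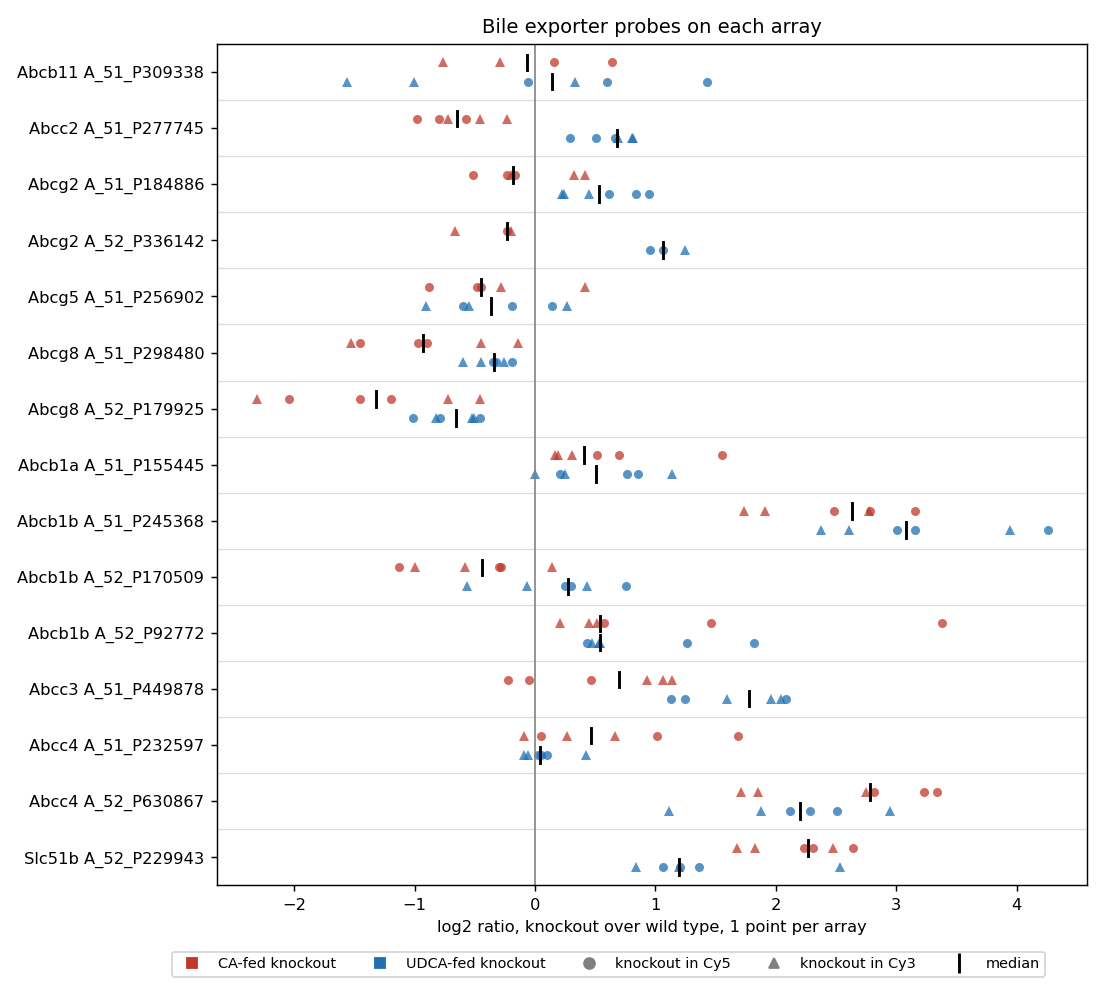
The log2 ratio of knockout over wild type is on the x axis, with 1 row per tested exporter probe, red for CA arrays and blue for UDCA arrays, circles for knockout RNA in Cy5 and triangles for knockout RNA in Cy3, and a black bar at the median. The red and blue points of Abcc2 lie on opposite sides of 0, those of Abcc4 A_52_P630867, Abcb1b A_51_P245368 and Slc51b lie to the right of 0 in both diets, and the points of Abcb11 spread on both sides.

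Abcb11, the bile salt export pump, carries conjugated bile acids across the canalicular membrane and is the standard example of a gene that FXR turns on when bile acids rise. It was measured by A_51_P309338 (mm7 chr2:69168882-69168941, minus strand). The stretch of its promoter just before the start site is shown because it held the only matches among the exporter promoters to the inverted repeat that FXR is known to bind (AGGTCA, any 1 base, then TGACCT, searched on both strands with up to 2 mismatches). Capitals mark the 2 matches, which share no base, and the sequence is that of RefSeq, build GRCm38.p6, minus strand, chr2:69342617-69342766:
Abcb11: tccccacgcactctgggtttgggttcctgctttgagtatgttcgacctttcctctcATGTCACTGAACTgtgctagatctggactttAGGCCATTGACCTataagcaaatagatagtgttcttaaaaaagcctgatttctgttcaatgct
The match nearer the start site has 1 mismatch and the other 2. Of 32851 promoter windows of the same length (250 bases before to 50 after a start site), 1.14% held such a match. A match is a run of letters and not a shown binding site.

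The 4 CA arrays with a value for Abcb11 gave 0.16, 0.64, -0.29 and -0.77, and the other 2 were flagged by the scanner software. The 6 UDCA arrays ran from -1.56 to 1.43 with a median of 0.14. All CA values lay within the range of the UDCA values. Abcb11 was not called with CA (-0.06 ± 0.27 SE, adjusted p = 0.856) or with UDCA (-0.04 ± 0.22, adjusted p = 0.917), and the difference of -0.02 had a 95% confidence interval from -0.78 to 0.74. The spread followed the dye. With the knockout in Cy5 the mean ratio was 0.40 on 2 CA arrays and 0.66 on 3 UDCA arrays, and with the knockout in Cy3 it was -0.53 and -0.74. The dye term itself was called for Abcb11 (0.61, adjusted p = 0.0368) and for Abcc3 (-0.34, adjusted p = 0.0346), 2 of 15 exporter probes, against 12.9% of all tested probes. The spot was saturated in at least 1 channel on 6 of 6 CA arrays and 5 of 6 UDCA arrays, where the scale ends. With the slide as a block the UDCA value was -0.67 and was called (adjusted p = 0.0399). For this probe that value rests on UDCA arrays 3, 4 and 5 of slide 4 alone, because CA array 5 of slide 3 was flagged. The knockout spot was saturated on UDCA arrays 4 and 5.

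**Figure D2:**
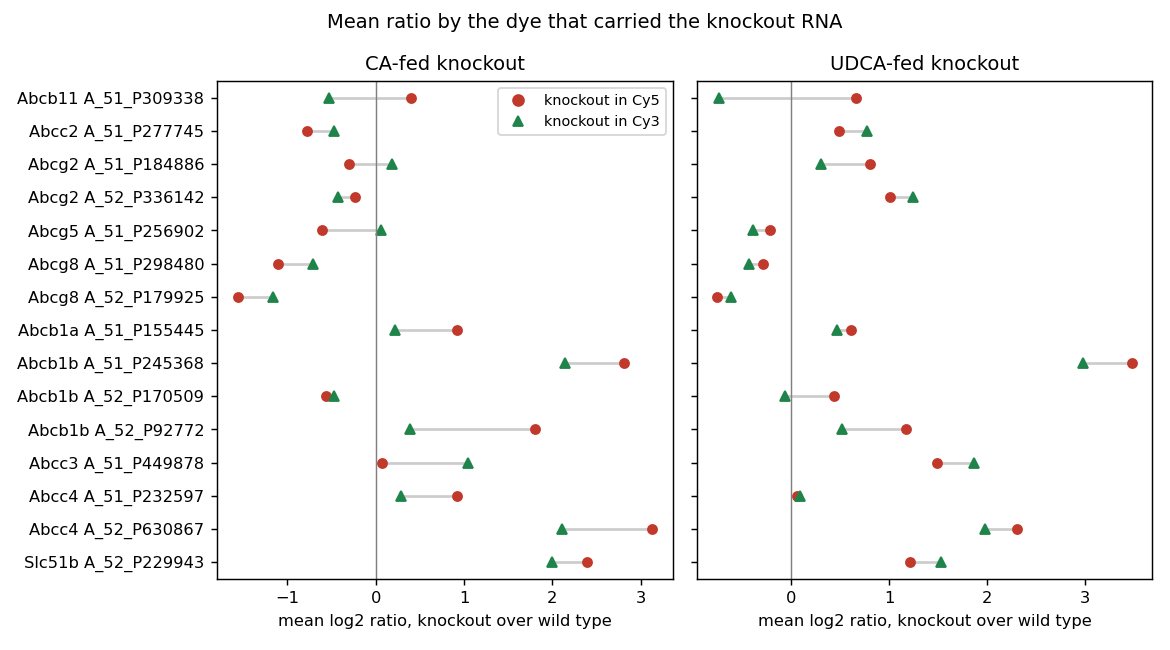
The mean log2 ratio of knockout over wild type is on the x axis for each tested exporter probe, with a red circle for arrays with the knockout in Cy5 and a green triangle for arrays with the knockout in Cy3, CA on the left and UDCA on the right. Abcb11 changes sign with the dye in both diets (0.40 and -0.53 with CA, 0.66 and -0.74 with UDCA), while Abcc2 keeps its sign in each diet.

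Abcc2, the canalicular pump for bilirubin glucuronides and glutathione conjugates, was lower than in wild type with CA and higher with UDCA. Its probe A_51_P277745 (mm7 chr19:43731462-43731521, plus strand) gave -0.80, -0.57, -0.98, -0.72, -0.23 and -0.46 on CA arrays 1 to 6 and 0.66, 0.51, 0.29, 0.81, 0.80 and 0.69 on UDCA arrays 1 to 6. Every CA array was below 0 and every UDCA array above it, with no overlap. Abcc2 fell 1.54-fold with CA (-0.63 ± 0.10 SE, adjusted p = 4.67e-05) and rose 1.55-fold with UDCA (0.63 ± 0.10, adjusted p = 0.000187). It was the single exporter probe of 15 that fell with CA and rose with UDCA, a combination called for 0.47% of all tested probes. The difference between the diets was -1.25 ± 0.13 (adjusted p = 3.75e-05). Within slide 3 it was -1.12 and within slide 4 -1.19, and with the slide as a block it was -1.35 (adjusted p = 0.000991). The normalized log2 intensity of the knockout was 10.93 ± 0.20 (SD, n = 6 arrays) with CA and 12.16 ± 0.17 with UDCA, while that of the wild type on the same arrays was 11.56 ± 0.31 and 11.53 ± 0.09. So the wild-type levels lay together and the knockout levels lay on either side of them. No Abcc2 spot was saturated. With median centring the values were -0.29, 1.08 and -1.37 and were not called (adjusted p = 0.627, 0.0988 and 0.211).

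The promoter of Abcc2 is shown because it held a match to TGACNNNGC, the core of the antioxidant response element that NRF2 binds, searched on both strands with no mismatch. The match is in capitals (RefSeq, GRCm38.p6, plus strand, chr19:43782158-43782307):
Abcc2: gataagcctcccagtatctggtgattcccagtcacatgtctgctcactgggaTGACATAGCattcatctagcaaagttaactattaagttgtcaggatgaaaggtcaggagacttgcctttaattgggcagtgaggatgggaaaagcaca
This short core is common: 12.4% of the 32851 promoter windows held it, as did 4 of the 13 windows of the exporter genes, which belong to Abcc2, Abcb1a and Abcc4 (2 start sites). The table of promoters had no entry for Abcc3.

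Abcg2, the breast cancer resistance protein, exports sulphated steroids, urate and many drugs at the canaliculus. Its probe A_51_P184886 (mm7 chr6:58658701-58660383) gave -0.52, -0.17, -0.23, 0.33, -0.20 and 0.41 on the CA arrays and 0.84, 0.94, 0.62, 0.24, 0.22 and 0.44 on the UDCA arrays. The second probe, A_52_P336142 (mm7 chr6:58646466-58651396), had a value on 3 arrays of each diet after flagged spots were left out: -0.23, -0.66 and -0.20 with CA and 0.96, 1.06 and 1.24 with UDCA. Every UDCA value was above 0 on both probes, and on the second probe the diets did not overlap. Both span more of the genome than their 60 letters, 1683 and 4931 bases. Abcg2 rose with UDCA on both probes (0.55 ± 0.13 SE, adjusted p = 0.00747, and 1.09 ± 0.17, adjusted p = 0.00135). With CA neither was called (-0.06 ± 0.14, adjusted p = 0.700, and -0.37 ± 0.17, adjusted p = 0.0855). With the authors' deposited table A_52_P336142 was called lower with CA too (-0.46, adjusted p = 0.00231), and then it fell with CA and rose with UDCA. The diets differed on both (-0.61 ± 0.19, adjusted p = 0.0273, and -1.46 ± 0.24, adjusted p = 0.00266). The difference on A_51_P184886 was -1.09 within slide 3, 0.05 within slide 4 and -0.19 with the slide as a block (adjusted p = 0.532), its UDCA call was lost with that block (0.40, adjusted p = 0.0504), and its spot was saturated in a channel on 7 of 12 arrays. The call of that difference was also lost without any 1 of CA arrays 1, 2, 3 and 5 and UDCA arrays 1, 2 and 3 (adjusted p up to 0.0719). Scanner-processed signals ended both the UDCA call of this probe (0.48, adjusted p = 0.0670) and its difference (-0.48, adjusted p = 0.203). With the array number as a replicate block its difference was not called either (adjusted p = 0.0565). On A_52_P336142 the difference was -1.64 within slide 3 (1 CA and 1 UDCA array) and -1.36 within slide 4 (1 CA and 2 UDCA arrays), and it could not be fitted with the slide as a block. The knockout spot of this probe was saturated on UDCA array 5, which gave its highest value (1.24). With median centring no Abcg2 call held (adjusted p = 0.244 and 0.0729 for the rises with UDCA, 0.593 and 0.292 for the differences).

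Abcg5 and Abcg8 are half-transporters that pair to pump cholesterol and plant sterols into bile, and both are LXR targets. They lie head to head, with start sites 110 bases apart. The 109 bases between the start sites are shown as the region both genes share (RefSeq, GRCm38.p6, plus strand, chr17:84683012-84683120, Abcg8 to the right):
Abcg5 to Abcg8: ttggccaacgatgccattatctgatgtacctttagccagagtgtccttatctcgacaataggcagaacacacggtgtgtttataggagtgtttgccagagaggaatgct
Neither of the 2 motifs searched matched in these letters.

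Abcg8 fell with CA on both of its probes. A_52_P179925 (mm7 chr17:82994253-82994312) gave -1.45, -2.04, -1.19, -2.31, -0.45 and -0.73 on the CA arrays and -0.79, -1.02, -0.46, -0.52, -0.51 and -0.82 on the UDCA arrays. A_51_P298480 (mm7 chr17:82989909-82989968) ran from -1.52 to -0.14 with CA (median -0.94) and from -0.60 to -0.19 with UDCA (median -0.34). All 12 arrays were below 0 on both probes, and the diets overlapped. A_51_P298480 had low signal: the knockout was well above background on 5 of 6 CA arrays and the wild type on 5 of 6 arrays of each diet. The fall with CA was 2.57-fold (-1.36 ± 0.19 SE, adjusted p = 1.88e-05) on the first probe and 1.88-fold (-0.91 ± 0.15, adjusted p = 0.000116) on the second. With UDCA the first probe fell (-0.69 ± 0.19, adjusted p = 0.0149) and the second was not called (-0.36 ± 0.15, adjusted p = 0.101). With the slide as a block the UDCA call was lost (-0.44, adjusted p = 0.131). The difference between the diets was not called on either probe (-0.68, 95% confidence interval -1.25 to -0.11, adjusted p = 0.0729, and -0.54, -1.0 to -0.09, adjusted p = 0.0731). With the slide as a block the first reached -0.91 and was called (adjusted p = 0.0405), but within slide 3 it was 0.18 and within slide 4 -0.32. It was called on A_52_P179925 without CA array 5 (-0.85, adjusted p = 0.0291) or CA array 6 (-0.79, adjusted p = 0.0474), and on A_51_P298480 without CA array 6 (-0.70, adjusted p = 0.0165) or UDCA array 6 (-0.61, adjusted p = 0.0470). Scanner-processed signals gave -0.77 and -0.91 for the 2 differences, both called (adjusted p = 0.0477 and 0.0439), and -0.90 for A_51_P298480 with UDCA (adjusted p = 0.00587). The authors' deposited table gave -0.77 and -0.68, both called (adjusted p = 0.0347 and 0.0273), and the UDCA group fitted on its own gave a call for A_51_P298480 (adjusted p = 0.0131). With median centring the UDCA call of A_52_P179925 was lost (-0.49, adjusted p = 0.329).

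Abcg5, its partner, was read by A_51_P256902 (mm7 chr17:82952711-82952770). The 5 CA arrays with a value ran from -0.88 to 0.41 (median -0.45) and the 6 UDCA arrays from -0.91 to 0.27 (median -0.37). Most arrays were below 0 in each diet, 4 of 5 and 4 of 6. Abcg5 was not called with CA (-0.32 ± 0.19 SE, adjusted p = 0.157) or UDCA (-0.31 ± 0.17, adjusted p = 0.220), and the 95% confidence interval of the difference ran from -0.55 to 0.52. Without CA array 4 its fall of 0.53 with CA was called (adjusted p = 0.0346), as was the UDCA value with the authors' deposited table (-0.39, adjusted p = 0.0321). The spot was saturated on 8 of 12 arrays, while no Abcg8 spot was saturated.

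Abcb1a and Abcb1b code for the 2 mouse P-glycoproteins, drug exporters of broad range, and Abcb4 is their close relative, and whether RNA of one gene bound the probe of another was not tested. Abcb1a (A_51_P155445, mm7 chr5:8785623-8785682) gave 0.70, 1.55, 0.51, 0.17, 0.31 and 0.19 with CA and ran from -0.0044 to 1.14 with UDCA (median 0.51). All CA arrays and 5 of 6 UDCA arrays were above 0. Abcb1a rose 1.49-fold with CA (0.57 ± 0.16 SE, adjusted p = 0.00685) and 1.45-fold with UDCA (0.54 ± 0.16, adjusted p = 0.0250). The 95% confidence interval with UDCA ran from 0.19 to 0.88, and the wild type was not well above background on any UDCA array. The UDCA call was lost with the slide as a block (0.28, adjusted p = 0.263), with no dye term (adjusted p = 0.0526) and without any 1 of UDCA arrays 1, 2, 4 and 6 (adjusted p up to 0.101, with 0.35 the value without UDCA array 6). The diets differed by 0.03, with a 95% confidence interval from -0.45 to 0.52.

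Abcb1b was read by 3 probes, of which A_52_P92772 and A_51_P245368 rose in both diets and A_52_P170509 did not. The first 30 of the 60 letters of each are shown in the order in which they lie along the plus strand, to make plain which stretch each value belongs to:
A_52_P92772: aagtgtccacagaaagcaagaccaagagag
A_52_P170509: aataaagcaactgaatgtccagtggctccg
A_51_P245368: tccaggctggagcaaagcgctcatgagctg
They start at mm7 positions 8865089, 8899085 and 8903569 of chromosome 5, so the second lies 33996 and the third 38480 bases downstream of the first. A_51_P245368 gave 2.79, 3.15, 2.49, 1.74, 2.78 and 1.91 with CA and 3.15, 4.26, 3.01, 2.61, 2.37 and 3.94 with UDCA. All 12 arrays were far above 0. On it Abcb1b rose 5.56-fold with CA (2.48 ± 0.21 SE, adjusted p = 9.53e-08) and 9.35-fold with UDCA (3.22 ± 0.21, adjusted p = 6.62e-08), the latter being the largest rise of the exporter probes in that diet. The diets were not called as different on it (-0.75, 95% confidence interval -1.37 to -0.13, adjusted p = 0.0680), within slides 3 and 4 the value was -0.35 and -0.56, and the call was gained without CA array 5 (adjusted p = 0.0484), with scanner-processed signals (-0.96, adjusted p = 0.0140) and with the authors' deposited table (-0.67, adjusted p = 0.0352).

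On A_52_P92772 the wild type was not well above background on any array, and Abcb1b was at least 2.05-fold higher with CA (1.10 ± 0.26 SE, adjusted p = 0.00208) and at least 1.74-fold higher with UDCA (0.84 ± 0.26, adjusted p = 0.0284). CA array 2 stood at 3.38 there and the other CA arrays between 0.21 and 1.46, and without it the fitted value with CA was 0.71 (adjusted p = 0.00273), below the stated bound. The UDCA call was lost without any 1 of UDCA arrays 1, 2, 4, 5 and 6 (adjusted p up to 0.0933) and with no dye term (adjusted p = 0.0931). The slide as a block ended the call in both diets (adjusted p = 0.0672 and 0.107).

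A_52_P170509 went the other way with CA. It gave -0.30, -0.28, -1.13, -1.0, 0.14 and -0.58 with CA and ran from -0.57 to 0.76 with UDCA (median 0.27). On it Abcb1b fell with CA (-0.52 ± 0.17 SE, adjusted p = 0.0152) and was not called with UDCA (0.18 ± 0.17, adjusted p = 0.493). The call with CA was lost without CA array 3 or without CA array 4 (adjusted p up to 0.0758). The diets differed by -0.71 ± 0.24 (adjusted p = 0.0412), a call lost in 10 of the 12 fits that left out 1 array, all but those without CA array 5 or UDCA array 6 (adjusted p up to 0.1005). It was also lost with no dye term (adjusted p = 0.0564), with no filter (0.0587), with scanner-processed signals (0.0703), with the authors' deposited table (0.0552) and with the slide as a random block (0.0602). Median centring ended both calls (-0.17 with CA, adjusted p = 0.805, and -0.81 for the difference, adjusted p = 0.592). Within slides 3 and 4 the difference was -0.15 and -0.73, and with the slide as a block -1.12 (adjusted p = 0.0235). It was lower than A_51_P245368 on 12 of 12 arrays, by a median of 2.82. The mean of the 3 probes was 1.02 with CA, so the direction of Abcb1b with CA as a gene depends on the probe.

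**Figure D3:**
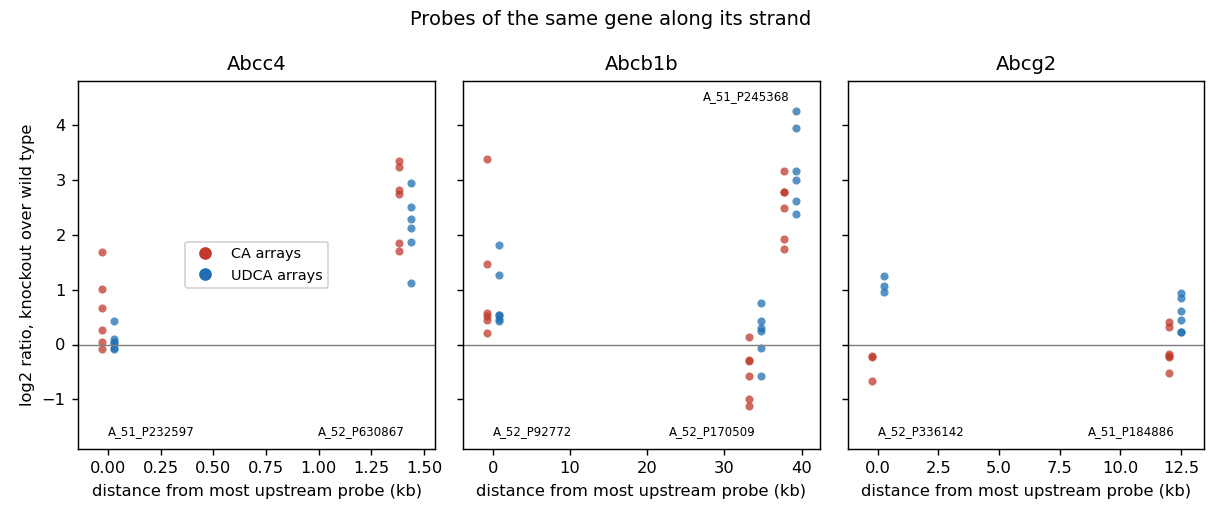
The log2 ratio of knockout over wild type on each array is set against the distance of the probe from the most upstream probe of the same gene in kilobases, in red for CA and blue for UDCA (set slightly apart), for Abcc4, Abcb1b and Abcg2. Abcc4 A_52_P630867 lies above A_51_P232597 on all arrays, and Abcb1b A_51_P245368 lies above A_52_P170509 on all arrays.

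At the basolateral membrane, Abcc3 exports glucuronides and bile acids to the blood. A_51_P449878 (mm7 chr11:94452396-94452455) gave -0.22, 0.47, -0.05, 0.93, 1.14 and 1.06 with CA and 1.25, 1.13, 2.09, 1.59, 1.96 and 2.04 with UDCA. All UDCA arrays were above 1, and the highest CA array (1.14) just reached the lowest UDCA array (1.13). Abcc3 rose 1.47-fold with CA (0.55 ± 0.14 SE, adjusted p = 0.00306) and 3.20-fold with UDCA (1.68 ± 0.14, adjusted p = 6.62e-07). The diets differed by -1.12 ± 0.20 (adjusted p = 0.000929). The difference was -0.73 within slide 3, -1.04 within slide 4 and -1.23 with the slide as a block (adjusted p = 0.00563). Before the dye effect was taken out, slide 3 gave 1.14 with CA and 1.25 and 1.13 with UDCA. The -0.73 there thus came mostly from the dye correction. The rise with CA went with the dye: the mean was 0.06 over the 3 arrays with knockout RNA in Cy5 and 1.04 over the 3 with Cy3, and the UDCA means were 1.49 and 1.86. The knockout spot was saturated on 3 UDCA arrays and on no CA array, which limits the size of the UDCA rise and of the difference. With median centring the rise with CA (0.79, adjusted p = 0.136) and the difference (-1.24, adjusted p = 0.270) were not called. The dim probe A_52_P622067, which lies 21014 bases upstream, ran from -0.49 to 0.41 with CA and from -0.09 to 0.71 with UDCA and was not tested, as it was well above background on at most 4 of 6 arrays in any channel.

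Abcc4, a basolateral exporter of bile acids together with glutathione and of cyclic nucleotides, had the largest rise of the exporter probes with CA. The stretch before its upstream start site is shown with its match to TGACNNNGC, on the opposite strand, in capitals (RefSeq, GRCm38.p6, minus strand, chr14:118706220-118706369):
Abcc4: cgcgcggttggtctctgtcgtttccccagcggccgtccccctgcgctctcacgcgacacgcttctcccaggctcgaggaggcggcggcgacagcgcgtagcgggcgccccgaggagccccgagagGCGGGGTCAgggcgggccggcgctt
A_52_P630867 (mm7 chr14:112885129-112885188, minus strand) gave 3.34, 2.82, 3.23, 1.71, 2.75 and 1.85 with CA and 2.51, 2.12, 2.29, 1.88, 1.11 and 2.95 with UDCA. All 12 arrays were above 1, and the diets overlapped. On it Abcc4 rose 6.13-fold with CA (2.62 ± 0.20 SE, adjusted p = 3.43e-08) and 4.42-fold with UDCA (2.14 ± 0.20, adjusted p = 1.54e-06). The difference was not called (0.47 ± 0.28, 95% confidence interval -0.12 to 1.07, adjusted p = 0.223), and without UDCA array 6 it reached 0.73 and was called (adjusted p = 0.0153). Within slides 3 and 4 it was 1.11 and 0.32. Before the dye effect was taken out, slide 3 gave 2.75 with CA and 2.51 and 2.12 with UDCA.

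The second Abcc4 probe, A_51_P232597, lies 1411 bases upstream and gave much smaller ratios. Their first 30 letters are, in the order of the minus strand:
A_51_P232597: tatttgaaacagcattgtgaccaccacgac
A_52_P630867: gccagtaaatgatgtagattcgtcctttat
The upstream probe gave 1.01, 1.68, 0.05, 0.27, 0.66 and -0.09 with CA and ran from -0.09 to 0.42 with UDCA (median 0.04). It was below the other probe on 12 of 12 arrays, with a median difference of -2.08. Abcc4 rose on it with CA (0.60 ± 0.17 SE, adjusted p = 0.00762) and was not called with UDCA (0.07 ± 0.17, adjusted p = 0.807). It was dim: the wild type was well above background on 1 CA array, and the knockout on 5 CA and 2 UDCA arrays. With the slide as a block its CA value was 0.22 and not called (adjusted p = 0.235), and with median centring it was 0.62 (adjusted p = 0.0631). The diets differed on it by 0.52 (adjusted p = 0.125), a difference called without CA array 3 (0.68, adjusted p = 0.0440) and with the authors' deposited table (0.51, adjusted p = 0.0383). Without CA array 2 the CA value was 0.39 (adjusted p = 0.0363).

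Slc51b, the β subunit of the organic solute transporter, needs its partner Slc51a to carry bile acids across the basolateral membrane of hepatocytes and cholangiocytes. A_52_P229943 (mm7 chr9:65442539-65442598, minus strand) gave 2.23, 2.31, 2.64, 1.82, 2.48 and 1.67 with CA and 1.20, 1.07, 1.36, 1.20, 0.84 and 2.54 with UDCA. Every array was above 0, and UDCA array 6 alone reached into the CA range. Slc51b rose 4.57-fold with CA (2.19 ± 0.18 SE, adjusted p = 1.06e-07) and 2.58-fold with UDCA (1.37 ± 0.18, adjusted p = 6.14e-05). The diets differed by 0.82 ± 0.26 (adjusted p = 0.0291), the single exporter difference called as higher with CA. It was 1.39 within slide 3, 0.56 within slide 4 and 0.91 with the slide as a block (adjusted p = 0.00678). UDCA array 6 had no weight in that block fit. The call was lost in 8 of the 12 fits that left out 1 array (CA arrays 2, 3 and 5 and UDCA arrays 1 to 5, adjusted p up to 0.071), and without UDCA array 6 the difference was 1.09 (adjusted p = 0.000246). With median centring it was 0.71 and not called (adjusted p = 0.194). The wild type was well above background on 4 of 6 arrays of each group. Slc51a was not well above background on enough arrays on either of its probes and was not tested.

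**Figure D4:**
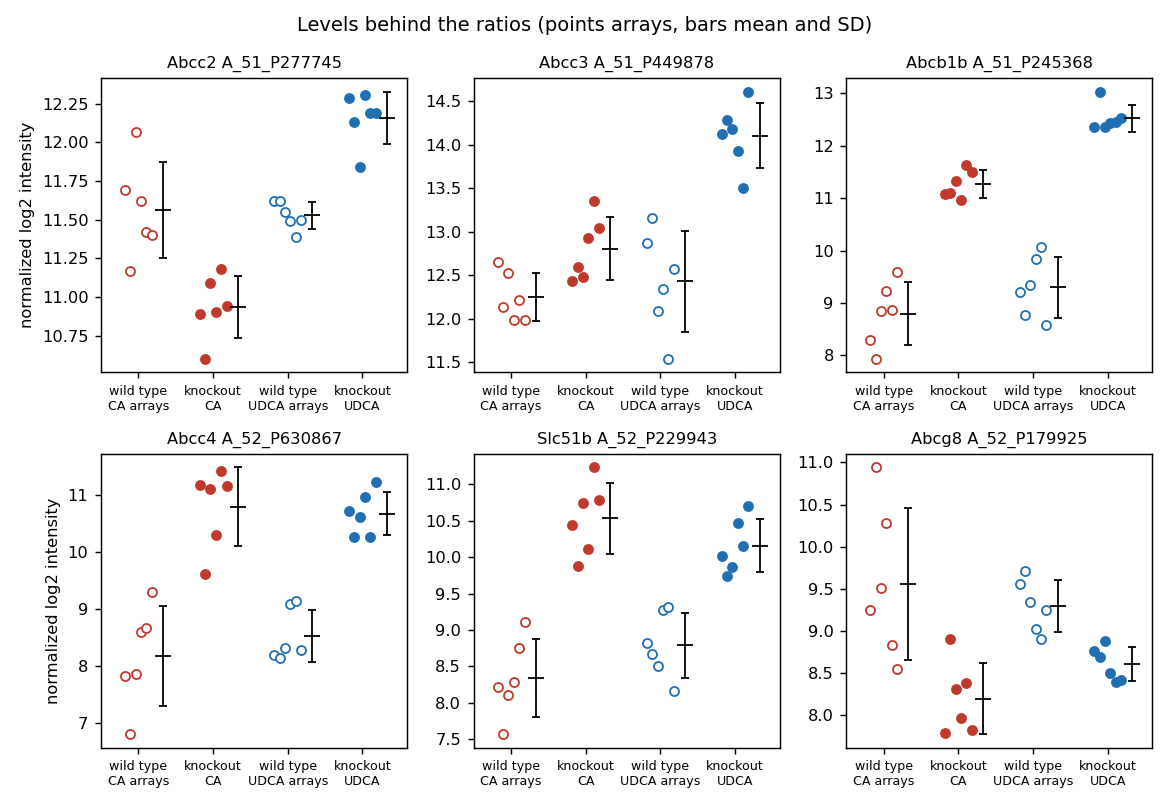
Normalized log2 intensity is on the y axis for 6 exporter probes, with open circles for wild-type RNA and filled circles for knockout RNA, red for CA arrays and blue for UDCA arrays, and bars for the mean and SD. The knockout points of Abcc2 lie below the wild type with CA (10.93 against 11.56) and above it with UDCA (12.16 against 11.53), and those of Abcc3, Abcb1b A_51_P245368, Abcc4 and Slc51b have higher means than the wild type in both diets.

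CA and UDCA are related steroid acids. UDCA carries fewer hydroxyl groups and holds a hydroxyl of its ring system in the opposite orientation. Despite the fewer hydroxyl groups it is the more hydrophilic of the pair. This 1 pair was compared at the same 9 weeks of feeding, with doses not given, and each diet was read against the wild-type RNA of its own arrays. The exporters whose ratio was lower with CA than with UDCA were Abcc2, Abcc3 and Abcg2 (both probes), and Abcb1b on A_52_P170509. Slc51b was higher with CA. No difference was called in the main fit for either Abcg8 probe, either Abcc4 probe or Abcb1b A_51_P245368. Nor was one called for Abcb11, Abcg5, Abcb1a and Abcb1b A_52_P92772. Abcb11 and Abcg5 were saturated on most arrays. For Abcb1a and Abcb1b A_52_P92772 the wild type was not well above background on any UDCA array. The confidence intervals of probes limited in these ways set no limit to a difference.

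**Figure D5:**
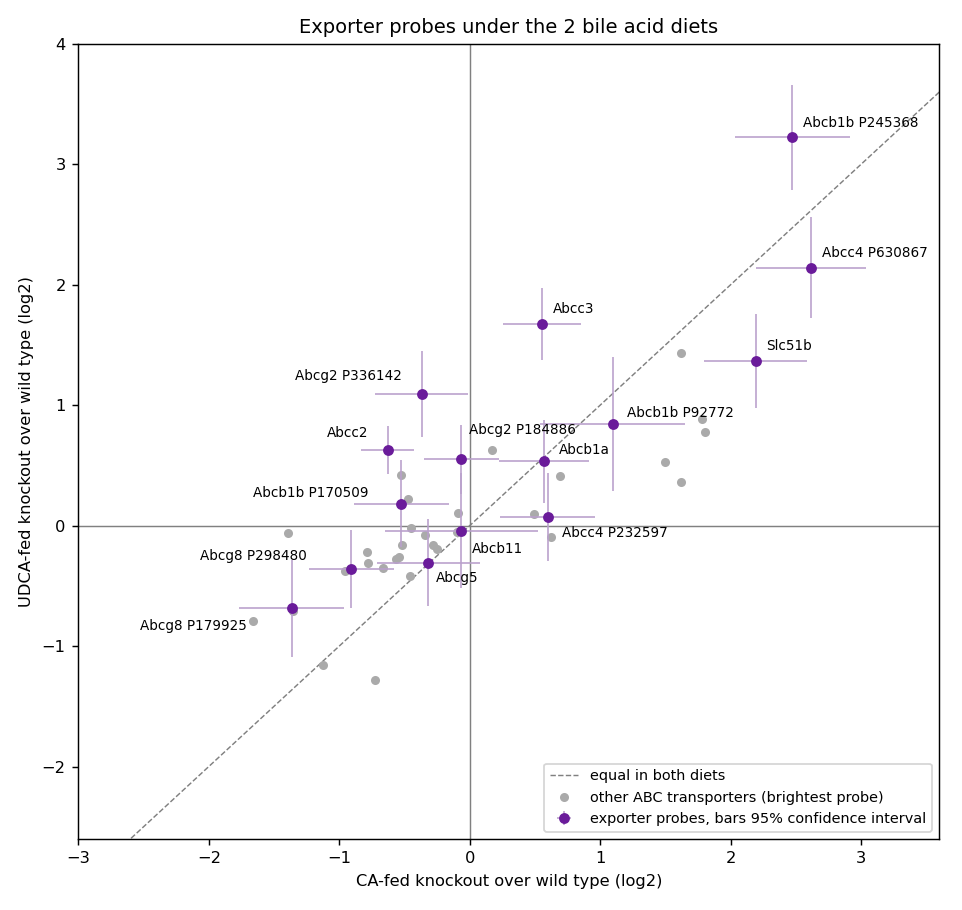
The fitted log2 ratio with CA is on the x axis and with UDCA on the y axis, purple points with bars for the 95% confidence interval being the 15 exporter probes and grey points the other ABC transporters. Abcc2 and Abcg2 A_52_P336142 lie in the upper left quadrant (-0.63 and 0.63 for Abcc2), Abcc3 lies above the dashed line of equal values, and Abcc4 A_52_P630867 and Slc51b lie below it.

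The other genes of these pathways were counted by their brightest tested probe, against 37.8% of all 15381 tested gene names that rose and 22.4% that fell with CA, and 17.2% and 8.78% with UDCA, with medians of 0.10 and 0.04. Of the 30 other ABC transporters, 8 rose and 15 fell with CA, and 7 rose and 4 fell with UDCA, with medians of -0.45 and -0.09, the deleted gene Abcb4 being 1 of those that fell in each diet. Abcg1, a sterol exporter of macrophages, rose most with CA (1.80 ± 0.11 SE, adjusted p = 6.64e-09), and Abcc6 fell most (-1.66 ± 0.21, adjusted p = 7.91e-06). Abcc5, which exports cyclic nucleotides, rose most with UDCA (1.43 ± 0.12, adjusted p = 8.67e-07). Among 13 tested other exporters and flippases, 4 rose and 5 fell with CA and 2 rose and 3 fell with UDCA (medians -0.20 and -0.08), Abcb4 again being 1 of those that fell in each diet. Cftr, the chloride channel of bile ducts, rose with CA (3.11 ± 0.23, adjusted p = 3.51e-08). Of 14 genes that anchor or traffic canalicular transporters, 8 rose and 3 fell with CA and 4 rose and 1 fell with UDCA (medians 0.34 and 0.22), led with CA by Ezr (1.47 ± 0.21, adjusted p = 2.26e-05), which ties membrane proteins to actin. Pdzk1, a scaffold of transporters, differed between the diets (-0.85 ± 0.13, adjusted p = 0.000359).

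Among 17 nuclear receptors and factors known to act on exporter genes, 3 rose and 8 fell with CA and 3 rose and 5 fell with UDCA (medians -0.31 and -0.31). Nr1i3, which codes for CAR, fell in both diets (-1.97 ± 0.13 SE, adjusted p = 9.31e-09, and -1.12 ± 0.13, adjusted p = 1.38e-05). Nr1h4, which codes for FXR, fell with CA (-0.93 ± 0.13, adjusted p = 2.28e-05), and the diets differed on it (-0.91 ± 0.17, adjusted p = 0.00175). Nfe2l2, which codes for NRF2, rose with CA (0.85 ± 0.19, adjusted p = 0.00114) and with UDCA (1.14 ± 0.19, adjusted p = 0.000361), and the diets were not called as different on it (-0.29, adjusted p = 0.442).

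The targets known for these factors moved as follows. Of 12 tested NRF2 targets, 3 rose and 2 fell with CA, 11 rose with UDCA, and 8 were lower and 1 higher in CA minus UDCA. Their medians were 0.18 with CA and 1.10 with UDCA. Srxn1, which repairs oxidized peroxiredoxins, rose with UDCA (2.14 ± 0.10 SE, adjusted p = 8.89e-09), and Gclc, the first enzyme of glutathione synthesis, differed most between the diets (-1.70 ± 0.21, adjusted p = 8.67e-05). Of 13 tested CAR and PXR targets, 2 rose and 6 fell with CA, 7 rose and 1 fell with UDCA, and 9 were lower and 1 higher in the difference. Their medians were -0.46 and 0.59. The cytochrome P450 gene Cyp2b9 had the largest difference (-4.65 ± 0.48, adjusted p = 2.65e-05), being -2.23 with CA and 2.42 with UDCA. Over all tested gene names 18.7% were higher and 8.88% lower in that difference.

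Of 14 tested FXR targets, 1 rose and 8 fell with CA and 1 rose and 5 fell with UDCA (medians -0.70 and -0.31). The deleted gene Abcb4 is 1 of those that fell in each diet, and the list holds both genes that FXR is known to induce and genes it is known to repress, such as Cyp7a1 and Cyp8b1, so its counts give no direction of FXR activity. Cyp8b1, the sterol hydroxylase that makes cholic acid, fell with CA (-4.17 ± 0.24 SE, adjusted p = 2.61e-09) and with UDCA (-1.28 ± 0.24, adjusted p = 0.001). Cyp7a1, whose product starts the main route of bile acid synthesis, fell in both (-1.94 ± 0.27, adjusted p = 2.07e-05, and -2.12 ± 0.27, adjusted p = 3.89e-05). Nr0b2, a gene that FXR is known to induce, also fell in both (-0.87 ± 0.15, adjusted p = 0.000173, and -0.76 ± 0.15, adjusted p = 0.00185). Sdc1 was the 1 target that rose in each diet (0.66 ± 0.15, adjusted p = 0.0019, and 0.76 ± 0.15, adjusted p = 0.00197). The activity of FXR was not tested. Of 11 LXR targets, 3 rose and 3 fell with CA and 2 rose with UDCA (medians -0.31 and -0.08), and Abcg1 and Lpl, the lipoprotein lipase, were among those that rose (2.62 ± 0.19 with CA for Lpl, adjusted p = 1.95e-08).

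These are RNA levels of whole liver, in which fewer cells of a type and less RNA per cell cannot be told apart. Markers of bile duct cells moved with the groups: 11 of 11 tested cholangiocyte markers (of 12 listed, Muc1 being too dim) rose with CA and 7 with UDCA, and 9 were higher with CA than with UDCA. Their summed normalized intensity was 60100 to 182000 in the CA-fed knockout, 17700 to 37000 in the UDCA-fed knockout and 7130 to 44400 in the wild type. The order of these ranges, CA above UDCA, was that of Slc51b and the reverse of that of Abcc2, Abcc3 and Abcg2. Markers of stellate cells and fibroblasts rose for 10 of 10 genes with CA and 8 with UDCA (summed intensity 86300 to 178000, 64300 to 124000 and, in wild type, 19000 to 65100). Of 11 tested hepatocyte markers, 1 was called with CA and 2 with UDCA, each as lower, and their summed intensity was 190000 to 724000, 159000 to 692000 and 186000 to 1070000. Of 10 macrophage markers 4 rose and 5 fell with CA and 5 rose and 2 fell with UDCA, of 10 endothelial markers 4 rose and 2 fell and 3 rose and 1 fell, of 6 tested T and NK cell markers 4 rose and 1 fell and 1 rose, and of 5 tested enterocyte markers 1 rose and 3 fell and 2 rose. The part of any of these cells in the exporter values was not tested.

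By the measure of likeness, the Pearson correlation over arrays of ratios with the dye effect taken out, the genes most like Abcb11 were Ppp2r5a (0.987), Asgr2 (0.983) and Lap3 (0.983) over 10 arrays, a ranking on a probe that was saturated in a channel on 11 of 12 arrays. Those most like Abcc4 A_52_P630867 were Cfap69 (0.955), Glb1l (0.955) and Galnt15 (0.950) over 12 arrays. Those most like Slc51b were Aoc1 (0.985), Tgfb2 (0.979) and Il17d (0.976) over 12 arrays. The arrays share the diet groups, so these values hold the difference between the diets as well as the spread within them. For Slc51b 219 of 11385 genes were above 0.9, and for Abcc4 25 were. Between exporters, Abcc4 A_52_P630867 and Slc51b had a correlation of 0.904 and Abcc2 and Abcc3 one of 0.842, over the 12 arrays.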

How the data were processed

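Total RNA of mouse liver was hybridised to 12 Agilent 4 x 44K whole mouse genome arrays, per the labels' protocols. Spot and background intensities were read with Feature Extraction 9.5.3 per the file headers, which also give processed signals and their log10 ratio. The deposited series table holds log2 ratios of the same spots, as a comparison with the scanner values showed (absolute Pearson correlation between 0.966 and 0.993), and its CA columns run wild type over knockout, the opposite of the direction used here, so they were turned. The sources used here do not say how that table had been normalized.

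Mean intensities were background-corrected by normexp (offset 50) and loess-normalized within each array, leaving control spots out, with limma 3.58.1 in R 4.3.3. Flagged spots (0.921% of values of tested probes) were set to missing, and spots of a probe were averaged. A probe was tested if well above background on at least 5 of 6 arrays of either RNA in either group, which gave 21697 probes. The log2 ratios were fitted with limma over all 12 arrays with a dye term and Benjamini-Hochberg adjustment, and each difference between diets was fitted in the same model. In simulated data 200 of the 21697 probes were changed with CA, up or down by 0.5 or by 1, and none with UDCA. The fit recovered 36% of those changed by 0.5 and 92% of those changed by 1 with CA. For the difference it recovered 0.5% and 72%. Far more probes were called in the real data, which moves the adjusted threshold, so these shares do not give the recovery there. Precision is limited by how many arrays there were. Levels in each channel come from a further between-array step (Aquantile) and are not compared between probes.

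A fold given as "at least" sets the mean of the brighter group against the higher, on each array, of the dim probe's own signal and the lowest signal well above background. It takes no account of the spread between arrays. The dye-swap arrays are not named in the labels, so all 6 arrays of a group entered. Residuals of the 9 possible pairs per group gave highest correlations of 0.109 and 0.0929, and no pair was joined. Symbols came from RefSeq accessions (15635 of the tested probes), probe positions are mm7 from the scanner files, and no exon annotation of that build was used. Promoter sequences are RefSeq's. The members and gene lists were chosen with earlier results of these data known. Every probe of the 10 genes is named, as are up to 3 genes per list and comparison with the largest called change. Abcb4, Nr0b2 and Sdc1 are named too, as are the 3 genes most like Abcb11, Abcc4 and Slc51b. Alternatives covered background correction, normalization, the filter, saturated spots, the dye term, slides, array numbers, the deposited table, the choice of probe and each array left out. Figures were drawn with matplotlib 3.10.9.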

Additional observations from a re-analysis of the deposited data

Results flagged for a closer look

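For 6 exporter probes the test of the difference between the diets was past the threshold. Abcc2 was lower with CA than with UDCA by a difference of -1.25, Abcc3 by -1.12, Abcg2 by -0.61 on A_51_P184886 and by -1.46 on A_52_P336142, and Abcb1b by -0.71 on A_52_P170509. Slc51b was higher with CA by 0.82.

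On UDCA array 6, Slc51b stood far from the other 5 arrays of its group, at 2.54 against 1.36 for the nearest. Chance sets a sample apart in this way in about 5% of groups. The search took in both diet groups of the exporter probes, and this was the only sample it set apart. Among that many groups 1 such case can arise by chance. The same array had the highest UDCA value of Abcc4 A_52_P630867 (2.95) and of Abcb1a (1.14), and it was the only array on its slide.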

How the results depend on the processing

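Of the exporter values under another setting, called and uncalled together, 968 were classed as unchanged, 69 lost a call, 22 gained one, 8 moved and 2 reversed. Unchanged means the same direction and side of the threshold, a small move within a slide, or no call in either fit whatever the sign. It includes 45 values with Aquantile, which cannot change a ratio, and fits without an array of the other diet. The count therefore does not say how many called directions held. Median centring of each array in place of loess changed most. It left 4942 probes higher and 1154 lower with CA (2 exporter probes lower), 1870 and 102 with UDCA (0 exporter probes lower, also at an unadjusted p), and 663 and 122 for the difference (0 exporter probes higher and 0 lower, 1 and 3 at an unadjusted p). With UDCA, 2 exporter probes were lower with the scanner's processed signals (2835 probes lower in all), with each group fitted on its own and with the deposited table. With the slide as a fixed block 5 exporter probes of 14 were higher with UDCA, and 2360 probes were higher in the difference. With the deposited table the difference had 2 exporter probes higher, and 3638 probes lower in all. Leaving out 1 array at a time gave 0 to 2 exporter probes higher and 3 to 6 lower in the difference. Abcb1b with CA turned to 1.02 when its probes were averaged, and Abcg2 A_51_P184886 had a difference of 0.055 within slide 4. The cause of these changes was not tested.

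The array numbers do not pair the samples: arrays of the same number had correlations from -0.567 to 0.134 across the diets. With the array number as a replicate block, 0 exporter probes were called higher by limma (1 at an unadjusted p under 0.05) and 3 lower in the difference, of 14 fitted. Aquantile leaves the ratios as they were. Saturation limits Abcb11, Abcg5, Abcg2 A_51_P184886 and the UDCA value and difference of Abcc3, and low signal limits Abcb1a, Abcb1b A_52_P92772 and Abcc4 A_51_P232597. Some arrays also had low signal for Abcg8 A_51_P298480, and in the wild type for Slc51b and Abcc4 A_52_P630867.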
